A study of Mus musculus with 16 samples.

Results

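Activation of the inhibitory receptor hM4Di in striatal astrocytes of wild-type mice was examined by comparing the 4 libraries of the group WT_hM4D with the 4 libraries of the group WT_tdT, which are 8 of the 16 libraries of the series. The members were all libraries of these 2 groups, chosen by their labels, and 20825 genes were tested. WT_hM4D mice carried an adeno-associated virus for hM4Di in the striatum, and WT_tdT mice carried a virus for the fluorescent protein tdTomato. Both groups received deschloroclozapine (DCZ), the agonist of hM4Di, and the labels place hM4Di in astrocytes. The other 8 libraries came from knockouts of Sapap3 (current symbol Dlgap3) with the same viruses, KO_hM4D and KO_tdT, and served to fit the spread between libraries and to test whether the effect differed by genotype. No source used here gives the strain, age, dose of DCZ, interval after it or promoter of the virus. No group had hM4Di without agonist, so the receptor, its activation and the other payload of the vector cannot be told apart. For 3 of the WT_hM4D libraries 1 label field read as knockout, while the title, the genotype field and the description read as wild type, which was followed.

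hM4Di is an engineered form of the human muscarinic M4 receptor that couples to Gi proteins. In neurons Gi coupling lowers cyclic AMP and excitability. In astrocytes the same G protein can raise intracellular calcium, and striatal astrocytes use Gi-coupled GABA receptors to sense projection neurons. Astrocytes that respond to injury or inflammation raise the intermediate filament proteins GFAP and vimentin, complement factors and interferon-induced genes. Immediate early genes such as Fos and Arc are transcribed within minutes of synaptic or growth factor stimulation and serve as markers of recent activity. The tissue was whole striatum, so fewer cells of a type and less RNA per cell cannot be told apart, and a change cannot be placed in astrocytes or in other cells.

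The WT_hM4D libraries held 136604299 to 174325860 counts and the WT_tdT libraries 131828601 to 180655067. For library totals an exact two-sided permutation test gave p = 0.886, and this test with 4 libraries against 4 cannot go below 0.0286. The mitochondrial genome gave 11.4% ± 0.494 of counts in WT_hM4D and 11.5% ± 0.604 in WT_tdT (SD, n = 4 each, exact permutation p = 0.8). Transcripts of both sexes, each at 5% or more of its highest level among the 16 libraries, were present in 3 of the 8 libraries. Xist, made from the inactive X chromosome, and the summed Y-linked transcripts stood at 12.8 and 128.5 CPM in WT_hM4D 2, at 22.3 and 16.8 CPM in WT_hM4D 4, and at 26.9 and 20.4 CPM in WT_tdT 4. CPM is the count scaled to the library total. These 3 libraries may not each be 1 mouse, and the calls and main lists are given with and without them and KO_tdT 3, the 1 knockout library past the same threshold. KO_tdT 4 lay just under it, with Xist at 28.2 CPM and Y-linked transcripts at 7.23 CPM (4.89% of the highest), and was left out in a further fit. WT_tdT 1 held Xist at 34.1 CPM and Y-linked transcripts at 0.0506 CPM, and the remaining 4 wild-type libraries held mainly Y-linked transcripts with Xist at 0.618 to 1.96 CPM (up to 4.18% of the highest), where KO_tdT 1 and 2 held 0. WT_hM4D 2 and WT_tdT 3 were the library of each group lowest in striatal projection neuron genes and highest in cortical neuron genes, as described below.

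Chrm4, which encodes the mouse M4 receptor, was read at 85.8, 92.8, 80.2 and 85.0 CPM in WT_hM4D libraries 1 to 4. In WT_tdT libraries 1 to 4 it was read at 63.2, 53.6, 49.0 and 62.8 CPM. Every WT_hM4D library lay above every WT_tdT library, and the log2 change was 0.59 (SE 0.15), with an adjusted p of 0.155 by edgeR's quasi-likelihood test with Benjamini-Hochberg adjustment over all genes tested. DESeq2 gave an adjusted p of 0.0167, and over the alternatives tried the adjusted p ranged from 0.0167 to 0.418. How many reads of the viral receptor fall on Chrm4 is not known from the table, so this gene is only a partial check of the labels. Dlgap3 was at 430, 414, 377 and 346 CPM in WT_hM4D and at 437, 294, 369 and 401 CPM in WT_tdT (log2 change 0.06, SE 0.09, edgeR adjusted p = 0.858). All 8 wild-type libraries lay above the knockouts, which held 153 to 167 CPM in KO_hM4D and 157 to 164 CPM in KO_tdT, also the 3 with a label field that read as knockout.

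Across the genome 10 genes rose and 8 fell in WT_hM4D at an edgeR adjusted p under 0.05, which is 0.048% and 0.0384% of the genes tested (0.0864% together). limma-voom called 13 higher (0.0624%) and 10 lower. At an unadjusted p under 0.05 there were 2302 genes (11.1%), 1368 higher and 934 lower. The genes that rose were Vim, Serpina3n, C4b, Gfap, Timp1, Oasl2, Il1a, Galnt7, Fam167a and Fbxw23. The genes that fell were Dusp1, Btg2, Cyr61, Fos, Gadd45b, Apold1, 3425401B19Rik and Junb. In all 18 the ranges of the 2 groups did not overlap, as was so for 1423 genes (6.83%) overall. The median log2 change of all genes was 0.001. DESeq2 called 157 genes higher and 87 lower (0.858% and 0.475% of 18307 with an adjusted p), including 17 of the 18, and gave no adjusted p for Fbxw23.

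**Figure D1:**
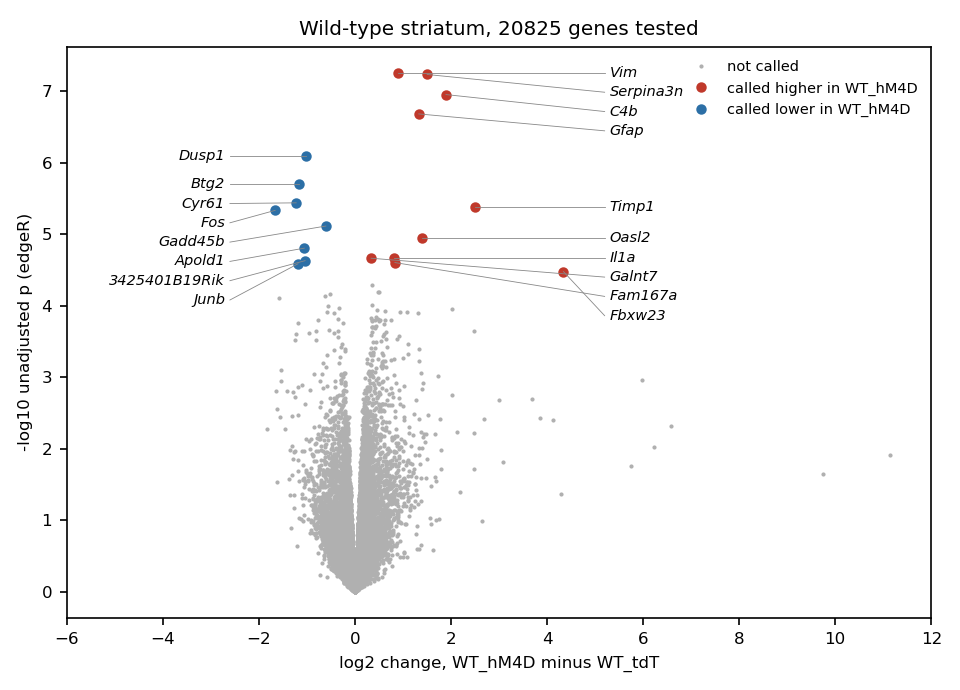
Log2 change in WT_hM4D minus WT_tdT (x axis) against the negative log10 of the unadjusted edgeR p (y axis) for 20825 genes, with the 10 genes called higher in red and the 8 called lower in blue. The called genes at the top are 4 genes of reactive astrocytes, Vim, Serpina3n, C4b and Gfap, and the uncalled points far to the right include immunoglobulin genes that differ widely between the WT_hM4D libraries.

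The number of calls depended on single libraries. It was 8 without WT_tdT 3, 6 without WT_tdT 4, 9 without WT_hM4D 3 and 12 without WT_hM4D 4, WT_tdT 1 or KO_hM4D 4. It was 42 without WT_hM4D 2, 28 without KO_tdT 3, 38 without KO_tdT 4 and 65 without KO_tdT 2. Without the 4 libraries past the threshold for transcripts of both sexes, which leaves 2 WT_hM4D against 3 WT_tdT libraries, edgeR called 1 gene, Cry1, and 0 of the 18, whose adjusted p then lay between 0.135 and 0.292. All 18 kept their direction there with an unadjusted p under 0.05, and DESeq2 on the same libraries called 17 of the 18. With KO_tdT 4 left out as well, edgeR called 14 genes, 5 of them among the 18 (Gfap, Serpina3n, Vim, Junb and Apold1). In the fit on the 8 wild-type libraries alone edgeR called 49 genes, 14 of them among the 18, and not Oasl2, Il1a, Fam167a or 3425401B19Rik. Vim, Serpina3n, C4b, Gfap, Dusp1 and Btg2 were called whichever library was left out.

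The 4 genes of smallest p, Vim, Serpina3n, C4b and Gfap, all belong to the reactive astrocyte list. The members of this and the other lists were chosen with earlier results of these data known, so counts by list are a description. Gfap, the intermediate filament protein of astrocytes (GRCm38 chromosome 11, 102887336 to 102900912, minus strand), was at 182, 199, 199 and 186 CPM in WT_hM4D libraries 1 to 4. In the WT_tdT libraries it was at 62.5, 82.0, 74.8 and 85.0 CPM. The lowest library with the receptor lay far above the highest control, and the log2 change was 1.33 (SE 0.15, edgeR adjusted p = 0.00107). Vim, the intermediate filament vimentin (chromosome 2, 13573927 to 13582826, plus strand), averaged 24.9 ± 2.76 CPM in WT_hM4D and 13.3 ± 0.639 CPM in WT_tdT (SD, n = 4 each). Its log2 change of 0.90 (SE 0.09, edgeR adjusted p = 0.000602) was smaller than that of Gfap, with little spread in either group. Serpina3n, a secreted serine protease inhibitor of reactive astrocytes (chromosome 12, 104406729 to 104414329, plus strand), was at 15.5, 22.4, 16.5 and 17.0 CPM in WT_hM4D and at 5.46, 6.63, 7.17 and 5.90 CPM in WT_tdT. It rose by 1.51 on the log2 scale (SE 0.16, edgeR adjusted p = 0.000602).

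The promoter of Gfap is shown because it is the defining gene of the astrocyte response and because STAT3, a transcription factor of reactive gliosis, binds the motif TTCNNNGAA. The 300 bases run from 250 before the RefSeq start to 50 after it (GRCm38.p6, chr11:102897151-102897450, minus strand), with the motif in capitals.
Gfap promoter: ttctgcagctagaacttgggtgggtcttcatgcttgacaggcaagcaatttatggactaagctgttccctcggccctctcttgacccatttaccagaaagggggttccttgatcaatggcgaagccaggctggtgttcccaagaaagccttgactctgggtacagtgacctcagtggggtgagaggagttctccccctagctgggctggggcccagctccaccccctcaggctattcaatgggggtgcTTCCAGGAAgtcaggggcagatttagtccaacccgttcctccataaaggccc
The motif begins 2 bases before the RefSeq start, which lies inside the gene span given above. Among 32851 RefSeq promoter windows of this length 8.3% held TTCNNNGAA on either strand, and among the called genes with a window it stood in 1 of 8 that rose (Gfap) and 1 of 8 that fell (Apold1). No window was found for C4b and Fam167a. The interferon-stimulated response element was in 0 of the 8 risen genes' windows (3.44% of all windows), and the AP-1 motif TGANTCA stood in Il1a (7.81% of all windows).

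C4b, complement component 4 (chromosome 17, 34728380 to 34743882, minus strand), was at 69.7, 81.2, 93.9 and 92.1 CPM in WT_hM4D. In WT_tdT it was at 27.6, 25.7, 16.7 and 20.6 CPM. The groups were far apart, and C4b rose by 1.90 on the log2 scale (SE 0.21, edgeR adjusted p = 0.000767). C4a, its near-identical neighbour and a gene chosen after its values were seen, had 0.198 to 0.320 CPM in WT_hM4D and 0.0782 to 0.197 CPM in WT_tdT, and reads shared between the pair could have been split or dropped in counting. Timp1, a secreted inhibitor of matrix metalloproteinases (chromosome X, 20870166 to 20874735, plus strand), was at 0.463, 0.472, 0.459 and 0.283 CPM in WT_hM4D and at 0.0380, 0.0592, 0.117 and 0.0756 CPM in WT_tdT. It rose by 2.50 (log2, SE 0.37, edgeR adjusted p = 0.0107) from few reads, 258 counts over the WT_hM4D libraries and 46 over WT_tdT, and was not called without WT_tdT 4.

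Of the 42 tested genes of the reactive astrocyte list 5 rose and 0 fell, 22 were higher and 1 lower at an unadjusted p under 0.05, and 13 had every WT_hM4D library above every control (3.64% of all genes). Over all genes 6.57% were higher and 4.48% lower at an unadjusted p under 0.05. The median log2 change of the list was 0.31, against 0.001 over all genes, and 34 of the 42 were positive (50.3% of all genes). By type, the medians were 0.33 for 19 genes of reactivity in general, 0.39 for 12 genes linked to neurotoxic reactivity and 0.18 for 11 genes linked to ischaemia. Lcn2, a secreted lipid carrier that marks strong reactivity, was the exception, at 0.224, 0.182, 0.323 and 0.129 CPM in WT_hM4D and 0.652, 0.532, 0.480 and 0.166 CPM in WT_tdT (log2 change -1.09, SE 0.51, edgeR adjusted p = 0.450). Hspb1, a small heat shock protein in this list, was at 4.81, 3.59, 5.54 and 4.03 CPM in WT_hM4D and 2.19, 2.18, 2.27 and 2.90 CPM in WT_tdT. It was called by DESeq2 (adjusted p = 0.0015) and not by edgeR (log2 change 0.92, SE 0.20, adjusted p = 0.0806). Without the libraries holding transcripts of both sexes the list's median was 0.36 with 0 called, and without WT_hM4D 2 and WT_tdT 3 it was 0.32 with 5 called.

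**Figure D2:**
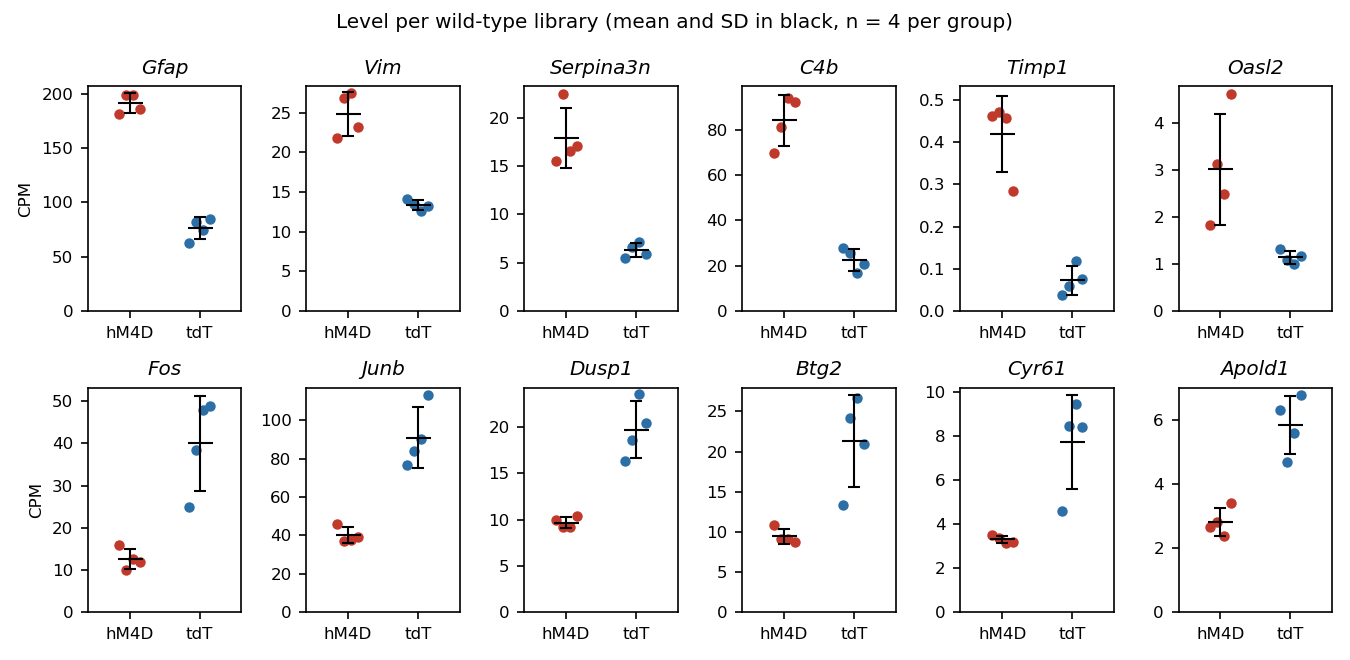
CPM (y axis) of 12 of the called genes in each library, WT_hM4D in red and WT_tdT in blue, with mean and SD in black (n = 4 per group). The upper row shows genes that rose, with Gfap at 182 to 199 CPM in WT_hM4D and 62.5 to 85.0 CPM in WT_tdT. The lower row shows genes that fell, where the WT_hM4D libraries lie close together and WT_tdT 1 is the lowest control for Fos, Junb, Dusp1, Btg2 and Cyr61.

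Several immediate early genes fell. Fos, a subunit of the transcription factor AP-1 (chromosome 12, 85473890 to 85477273, plus strand), was at 15.9, 9.99, 12.7 and 11.96 CPM in WT_hM4D. In WT_tdT it was at 24.8, 38.3, 47.8 and 48.9 CPM. The controls spread more widely than the libraries with the receptor, and the log2 change was -1.66 (SE 0.25, edgeR adjusted p = 0.0107). Fos was not called without WT_hM4D 3, WT_hM4D 4, WT_tdT 3 or WT_tdT 4. Junb, its partner subunit, was at 46.1, 37.0, 37.6 and 39.5 CPM in WT_hM4D and at 76.6, 83.9, 90.1 and 113 CPM in WT_tdT (log2 change -1.18, SE 0.20, edgeR adjusted p = 0.0315). Junb lost its call in 10 of the 16 fits that left out 1 library, the 8 without a wild-type library and those without KO_hM4D 1 or KO_hM4D 4.

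Of the brakes that these stimuli also induce, 3 fell. Dusp1, a phosphatase that inactivates MAP kinases (chromosome 17, 26505590 to 26562128, minus strand), was at 9.99, 9.19, 9.18 and 10.4 CPM in WT_hM4D and at 16.3, 18.6, 23.5 and 20.4 CPM in WT_tdT. It had the smallest p of the genes that fell (log2 change -1.02, SE 0.13, edgeR adjusted p = 0.00335). Btg2, an antiproliferative regulator of mRNA decay (chromosome 1, 134075170 to 134079120, minus strand), was at 10.8, 9.11, 9.09 and 8.82 CPM in WT_hM4D and at 13.4, 24.2, 26.6 and 21 CPM in WT_tdT. Its control WT_tdT 1 stood apart from the other three, close to WT_hM4D 1, and the log2 change was -1.17 (SE 0.16, edgeR adjusted p = 0.00689). Gadd45b, a stress-induced growth arrest gene, averaged 7.91 ± 0.734 CPM in WT_hM4D and 12.01 ± 0.535 CPM in WT_tdT (log2 change -0.60, SE 0.09, edgeR adjusted p = 0.0159). It lost its call without WT_hM4D 4, WT_tdT 3 or WT_tdT 4.

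The promoters of Dusp1 and Btg2 are shown because they alone, among the called genes with a window, held the full cAMP response element TGACGTCA. This is a site bound by CREB, which protein kinase A activates and which Gi signalling opposes in neurons. The windows are RefSeq's (GRCm38.p6), 250 bases before to 50 after the start, at chr17:26508423-26508722 and chr1:134079106-134079405, both on the minus strand, with the element in capitals.
Dusp1 promoter: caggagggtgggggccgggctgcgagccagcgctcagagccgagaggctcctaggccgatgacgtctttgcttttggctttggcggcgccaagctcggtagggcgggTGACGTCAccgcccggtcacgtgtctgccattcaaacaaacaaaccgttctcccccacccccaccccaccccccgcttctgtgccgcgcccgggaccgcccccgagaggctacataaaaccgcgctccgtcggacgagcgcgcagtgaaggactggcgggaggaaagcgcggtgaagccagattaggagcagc
Btg2 promoter: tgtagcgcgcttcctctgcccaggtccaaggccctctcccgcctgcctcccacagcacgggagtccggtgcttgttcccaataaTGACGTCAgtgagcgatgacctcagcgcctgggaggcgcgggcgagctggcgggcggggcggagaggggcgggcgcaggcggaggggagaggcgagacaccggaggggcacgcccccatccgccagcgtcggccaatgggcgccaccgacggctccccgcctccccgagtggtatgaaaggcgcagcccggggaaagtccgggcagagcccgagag
The element begins 143 bases before the RefSeq start of Dusp1 and 166 bases before that of Btg2. For Dusp1 the RefSeq start lies well inside the gene span given above. It was in 2 of the 8 windows of fallen genes, in 0 of the 8 windows of risen genes and in 588 of all 32851 windows (1.79%). A serum response element (CArG box) was in 0 of these windows and in 1.63% of all. A match says that these letters stand in the window and no more. Partial elements, such as the letters tgacgta in the window of Fos, and sites outside the windows were not counted. The other fallen genes may therefore still hold sites for these factors.

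The effector genes that fell were Cyr61 and Apold1. Cyr61, a secreted matrix protein (chromosome 3, 145646976 to 145649981, minus strand), was at 3.52, 3.36, 3.16 and 3.21 CPM in WT_hM4D and at 4.61, 8.45, 9.45 and 8.40 CPM in WT_tdT. The WT_hM4D libraries lay close together while WT_tdT 1 was well under the other controls, and the log2 change was -1.22 (SE 0.18, edgeR adjusted p = 0.0107). Its call was lost without WT_hM4D 3 or WT_tdT 4. Apold1, an early response gene of endothelial cells (chromosome 6, 134981718 to 134986836, plus strand), averaged 2.82 ± 0.445 CPM in WT_hM4D and 5.85 ± 0.913 CPM in WT_tdT (log2 change -1.05, SE 0.17, edgeR adjusted p = 0.0270). It was not called without WT_hM4D 1, WT_hM4D 3, WT_tdT 1, WT_tdT 3 or WT_tdT 4.

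Of the 51 immediate early genes tested 7 fell and 0 rose (0.0384% and 0.048% of all genes). At an unadjusted p under 0.05, 27 were lower and 2 higher (4.48% and 6.57% of all genes). In 21 every WT_hM4D library lay under every control (3.19% of all genes). The median log2 change was -0.39. By role, the medians were -0.36 for 6 AP-1 subunits, -0.47 for 18 other transcription factors, -0.45 for 13 signal brakes and 0.03 for 14 effectors. DESeq2 called 18 of the 51 lower (0.475% of all genes with an adjusted p). Among those that edgeR did not call, Nr4a1, an orphan nuclear receptor, was at 26.6, 27.2, 23.1 and 27.5 CPM in WT_hM4D and 72.7, 61.8, 75.6 and 103 CPM in WT_tdT (log2 change -1.58, SE 0.30, edgeR adjusted p = 0.0663, DESeq2 adjusted p = 0.00104). Arc, a capsid-like protein of dendritic spines, was at 144, 119, 122 and 134 CPM in WT_hM4D and 244, 263, 338 and 331 CPM in WT_tdT (log2 change -1.18, SE 0.24, edgeR adjusted p = 0.0735, DESeq2 adjusted p = 0.00521). Egr1, a zinc finger activity marker, differed less, at 88.2 to 96.7 CPM in WT_hM4D and 111 to 142 CPM in WT_tdT (log2 change -0.46, SE 0.13, edgeR adjusted p = 0.194). Fosb overlapped between the groups (log2 change -0.39, SE 0.16, edgeR adjusted p = 0.394). Without the libraries holding transcripts of both sexes the list's median was -0.34, and without WT_hM4D 2 and WT_tdT 3 it was -0.39, with 0 genes called in either.

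The mean log2 level of the reactive astrocyte list was 1.78, 1.92, 2.05 and 1.83 in WT_hM4D libraries 1 to 4 and 1.45 to 1.5 in WT_tdT. That of the immediate early list was 3.86, 3.81, 3.84 and 3.65 in WT_hM4D and 4.02, 4.17, 4.28 and 4.43 in WT_tdT. On this measure the groups overlapped in neither list. In summed CPM the immediate early groups did overlap, at 1885 to 2339 in WT_hM4D and 2298 to 2790 in WT_tdT. The controls were nearly equal in the reactive astrocyte list and spread out in the immediate early list, with WT_tdT 1 lowest.

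**Figure D3:**
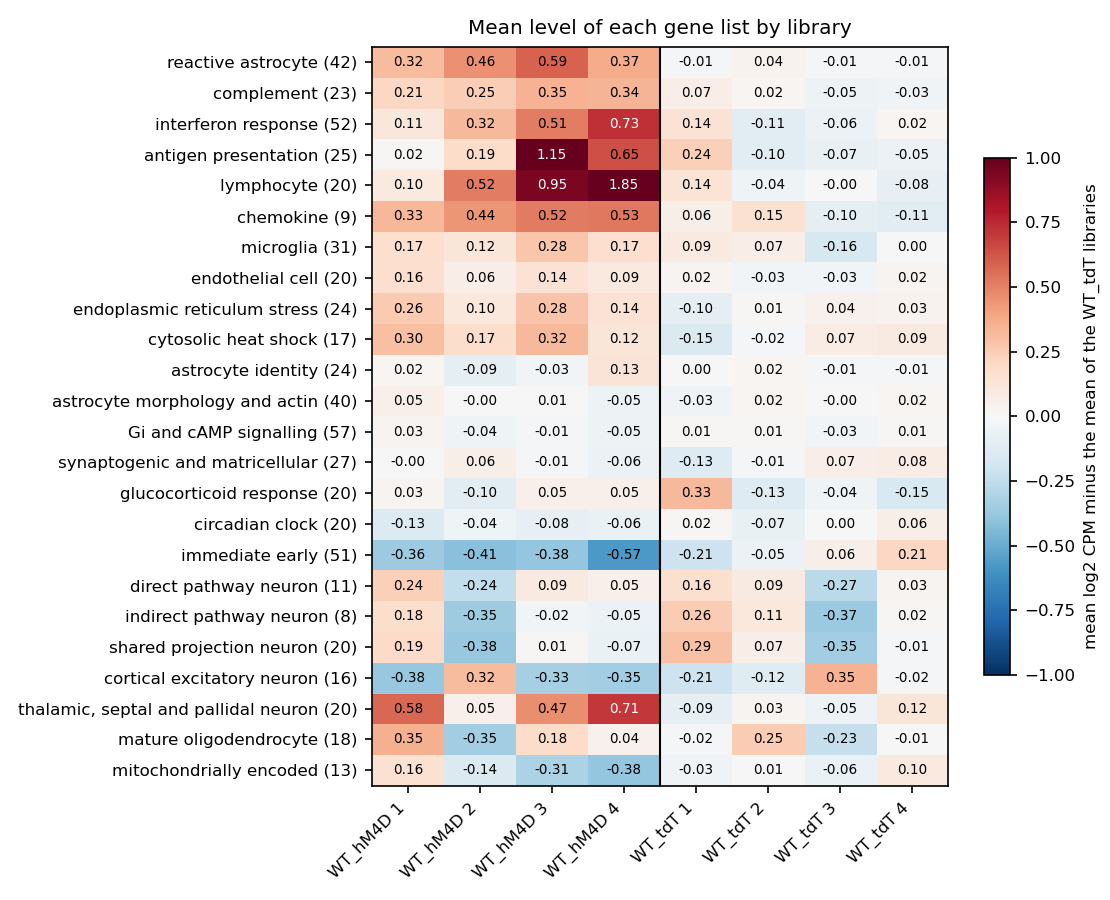
Mean log2 CPM of each gene list (rows, number of genes tested in brackets) in each wild-type library (columns), as the difference from the mean of the 4 WT_tdT libraries. The reactive astrocyte list is 0.32 to 0.59 in WT_hM4D and the immediate early list -0.57 to -0.36, whereas antigen presentation and lymphocyte genes are high in WT_hM4D 3 and 4 and projection neuron genes are low in WT_hM4D 2 and WT_tdT 3.

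Of the genes induced by interferon edgeR called 1, Oasl2. Oasl2, a 2'-5'-oligoadenylate synthetase-like protein of the antiviral response (chromosome 5, 114896936 to 114912234, plus strand), was at 1.83, 3.12, 2.49 and 4.604 CPM in WT_hM4D. In WT_tdT it was at 1.32, 1.08, 0.9995 and 1.17 CPM. WT_hM4D 4 was the highest and WT_hM4D 1 the lowest of the libraries with the receptor, and the log2 change was 1.40 (SE 0.22, edgeR adjusted p = 0.0213). The call was lost without WT_tdT 2, WT_tdT 3 or WT_tdT 4, without WT_hM4D 2 and WT_tdT 3 together, and in the wild-type libraries alone. Without the libraries holding transcripts of both sexes the log2 change of Oasl2 was 0.92 (adjusted p = 0.200). Of the 52 interferon genes tested Oasl2 alone rose, and the median log2 change was 0.37. At an unadjusted p under 0.05, 29 were higher and 0 lower (6.57% and 4.48% of all genes). In 16 every WT_hM4D library lay above every control (3.64% of all genes), and 49 were positive (50.3% of all genes). Ifit3, which binds viral RNA complexes, was at 7.73, 9.41, 9.20 and 13.5 CPM in WT_hM4D and 6.67, 6.11, 6.79 and 6.27 CPM in WT_tdT (log2 change 0.62, SE 0.12, edgeR adjusted p = 0.0732, DESeq2 adjusted p = 0.000854). Bst2, a membrane tether of budding viruses, was likewise lowest in WT_hM4D 1 and highest in WT_hM4D 4, at 1.22 to 2.53 CPM in WT_hM4D and 0.798 to 1.01 CPM in WT_tdT (log2 change 0.95, SE 0.19, edgeR adjusted p = 0.0732). Over the list the mean log2 level was 0.66, 0.87, 1.06 and 1.28 in WT_hM4D and 0.44 to 0.69 in WT_tdT, so WT_hM4D 1 lay within the controls. Without the libraries holding transcripts of both sexes the medians were 0.31 for interferon, 0.51 for antigen presentation, 0.24 for complement and 0.19 for microglia genes, with 0 called by edgeR in each.

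Of 25 genes of antigen presentation tested 0 were called by edgeR, and the median log2 change was 0.46. DESeq2 called 2, both higher (0.858% of all genes with an adjusted p). At an unadjusted p under 0.05, 14 were higher and 0 lower (6.57% and 4.48% of all genes). In 4 every WT_hM4D library lay above every control (3.64% of all genes). The class II genes were uneven: H2-Aa was at 0.722, 1.05, 5.96 and 1.59 CPM in WT_hM4D and 0.607, 0.552, 0.798 and 0.779 CPM in WT_tdT (log2 change 1.77, SE 0.53, edgeR adjusted p = 0.224). Cd74, the invariant chain that guides class II proteins, was at 2.38, 3.02, 14.5 and 4.47 CPM in WT_hM4D and 2.08, 1.80, 2.04 and 2.90 CPM in WT_tdT (log2 change 1.47, SE 0.47, edgeR adjusted p = 0.256). In both, WT_hM4D 3 stood far above the other libraries. B2m, the light chain of class I molecules, was at 69.5 to 90.0 CPM in WT_hM4D and 62.5 to 82.3 CPM in WT_tdT (log2 change 0.15, SE 0.09, edgeR adjusted p = 0.558). The DESeq2 calls were Ctss, the lysosomal protease cathepsin S, at 86.8 to 110 CPM in WT_hM4D and 75.2 to 77.4 CPM in WT_tdT (log2 change 0.37, DESeq2 adjusted p = 0.00809), and Psmb8, a subunit of the immunoproteasome, whose groups overlapped (log2 change 0.52, DESeq2 adjusted p = 0.0402). Without WT_hM4D 3 the log2 change of H2-Aa was 0.72, the lowest over the alternatives.

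Of 23 complement genes tested C4b rose (0.048% of all genes), and the median was 0.21. At an unadjusted p under 0.05, 12 were higher and 0 lower (6.57% and 4.48% of all genes). C3, the central component, was at 0.603, 1.13, 1.81 and 1.596 CPM in WT_hM4D and 0.709, 0.605, 0.357 and 0.461 CPM in WT_tdT (log2 change 1.27, SE 0.35, edgeR adjusted p = 0.189, DESeq2 adjusted p = 0.0208). WT_hM4D 1 lay within the controls for C3. The C1q genes, which microglia supply in brain, differed little, such as C1qa at 60.5 to 69.7 CPM in WT_hM4D and 49.9 to 61.0 CPM in WT_tdT (log2 change 0.21, SE 0.09, edgeR adjusted p = 0.416).

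Il1a, the cytokine interleukin 1 alpha that microglia release to induce reactive astrocytes, rose to 0.842, 0.952, 1.04 and 0.887 CPM in WT_hM4D, against 0.481, 0.625, 0.508 and 0.499 CPM in WT_tdT. The log2 change was 0.82 (SE 0.14, edgeR adjusted p = 0.0315), and the call was lost without WT_hM4D 3, WT_hM4D 4, WT_tdT 1, WT_tdT 3, WT_tdT 4 or KO_hM4D 4. Of the 31 microglia genes tested 0 were called by edgeR, and the median was 0.15. At an unadjusted p under 0.05, 11 were higher and 0 lower (6.57% and 4.48% of all genes). DESeq2 called 2 of the microglia genes, both higher (0.858% of all genes with an adjusted p). Tmem119, a microglial surface protein, was at 25.3, 22.7, 29.6 and 27.5 CPM in WT_hM4D and 21.1, 19.5, 18.6 and 21.1 CPM in WT_tdT (log2 change 0.39, SE 0.10, edgeR adjusted p = 0.170, DESeq2 adjusted p = 0.0347). P2ry12, the purinergic receptor of resting microglia, was at 39.0 to 44.7 CPM in WT_hM4D and 41.6 to 44.3 CPM in WT_tdT (log2 change -0.04, SE 0.07, edgeR adjusted p = 0.901). P2ry12 was the 1 negative gene of 17 for microglial identity, and of all 31 microglia genes 28 were positive (50.3% of all genes). The summed level of the list was 2009 to 2201 CPM in WT_hM4D and 1886 to 2102 CPM in WT_tdT, ranges that overlap. Its mean log2 level was 3.28 to 3.44 in WT_hM4D and 3.0 to 3.25 in WT_tdT, ranges that do not. The part of microglial RNA in the immune genes above was not tested.

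Immunoglobulin transcripts were present in the WT_hM4D libraries at very different levels. Igkc, the kappa light chain, was at 0.631, 4.05, 2.85 and 14.7 CPM in WT_hM4D and at 0.101, 0.112, 0.0949 and 0.0378 CPM in WT_tdT. Jchain, which joins secreted IgA and IgM, was at 0.245, 1.43, 1.52 and 4.62 CPM in WT_hM4D and at 0.107, 0.105, 0.140 and 0.0907 CPM in WT_tdT. Every WT_hM4D library was above every control for both genes, with WT_hM4D 4 far the highest, and DESeq2 called both (adjusted p = 0.000587 and 0.0214) while edgeR did not (adjusted p = 0.153 and 0.225). Igkv5-39, a variable segment, had 55, 379, 31 and 676 counts in WT_hM4D and 0 counts in the 4 WT_tdT libraries. Of 37 lymphocyte genes listed 20 passed the filter on low counts with 0 called by edgeR. DESeq2 called 5, all higher (0.858% of all genes with an adjusted p). T cell markers too low to test were Cd3e, at most 0.0113 CPM in WT_hM4D and 0.00756 CPM in WT_tdT, Cd3d, at most 0.0793 CPM in WT_hM4D and 0.0132 CPM in WT_tdT, and Cd8a, at most 0.0679 CPM in WT_hM4D and 0.0227 CPM in WT_tdT. WT_hM4D 3 was the highest for all 3. Cxcr6, a chemokine receptor of T cells, was at 0.0421, 0.0436, 0.159 and 0.117 CPM in WT_hM4D and at most 0.0112 CPM in WT_tdT, without overlap (edgeR adjusted p = 0.186). Of the 11 T and NK cell genes tested 3 were positive and 8 negative, with a median log2 change of -0.19. At an unadjusted edgeR p under 0.05, 2 of these 11 were higher and 0 lower (6.57% and 4.48% of all genes). Ptprc, the pan-leukocyte antigen CD45, was at 5.28 to 6.27 CPM in WT_hM4D and 3.89 to 5.10 CPM in WT_tdT (log2 change 0.40, SE 0.10, edgeR adjusted p = 0.161, DESeq2 adjusted p = 0.0206). In KO_hM4D, libraries 3 and 4 held Igkc at 17.6 and 20.03 CPM, while KO_hM4D 1 and 2 held 0.101 and 0.144 CPM and KO_tdT 0.0224 to 0.0969 CPM. Among chemokines, Cxcl10 was at 0.196, 0.312, 0.419 and 0.438 CPM in WT_hM4D and 0.0696, 0.0723, 0.106 and 0.0832 CPM in WT_tdT (log2 change 2.03, SE 0.40, edgeR adjusted p = 0.0732, DESeq2 adjusted p = 0.000854).

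**Figure D4:**
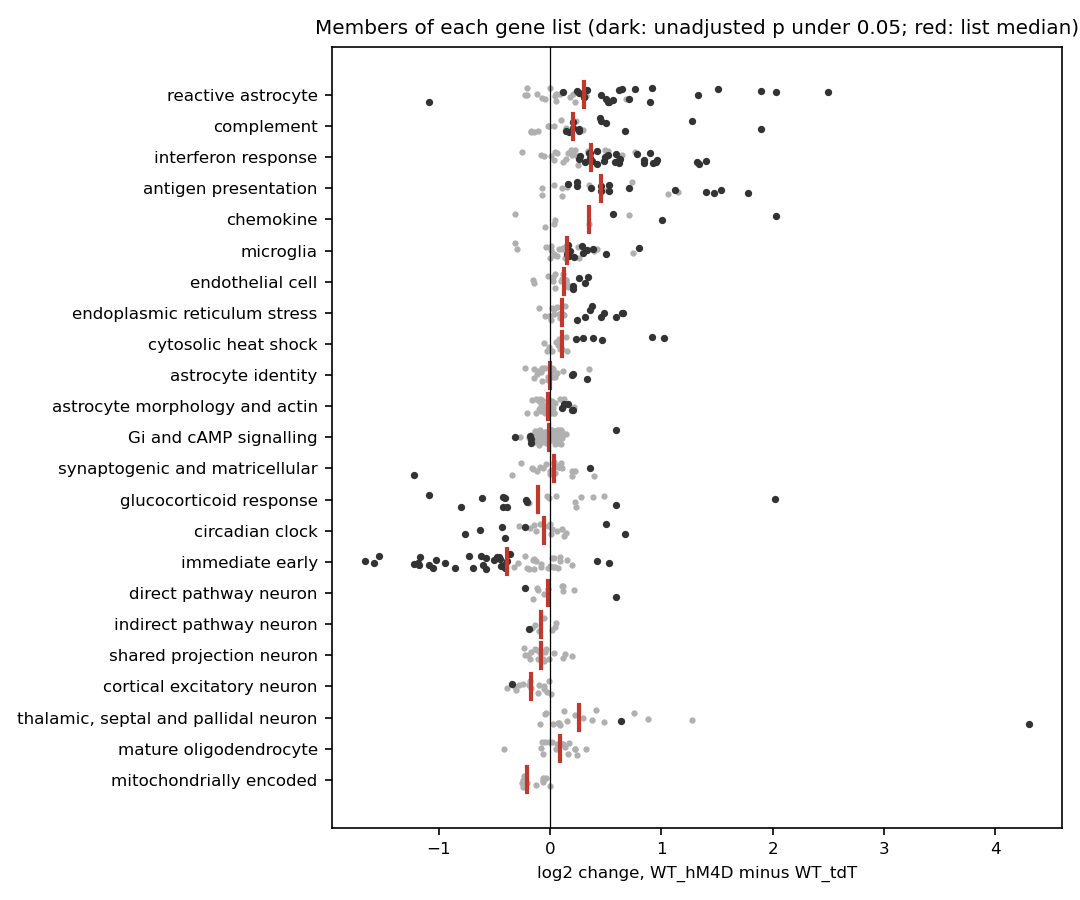
Log2 change in WT_hM4D minus WT_tdT (x axis) of each tested member of 23 gene lists (rows), with members at an unadjusted p under 0.05 in dark and the list median as a red bar. The medians are 0.31 for reactive astrocyte, 0.37 for interferon response and -0.39 for immediate early genes, and lie near 0 for astrocyte identity and for morphology and actin.

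No gene of astrocyte identity was called. Of 24 tested 3 were higher and 0 lower at an unadjusted p under 0.05 (6.57% and 4.48% of all genes). In sign, 12 were positive and 12 negative, and the median was -0.01. Slc1a3, the glutamate transporter GLAST, was at 516 to 580 CPM in WT_hM4D and 515 to 556 CPM in WT_tdT (log2 change 0.01, SE 0.06, edgeR adjusted p = 0.971). Aldh1l1, a folate enzyme that marks astrocytes, was at 66.9, 76.0, 73.5 and 86.8 CPM in WT_hM4D and 78.2, 75.4, 72.3 and 70.9 CPM in WT_tdT (log2 change 0.03, SE 0.06, edgeR adjusted p = 0.900). The summed level of the list was 10750 to 11550 CPM in WT_hM4D and 11080 to 11870 CPM in WT_tdT, so the higher Gfap and Vim stood beside astrocyte markers at the level of the controls.

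The series concerns astrocyte morphology, and 40 genes of actin regulation and membrane linkage were examined. None was called by edgeR or DESeq2 (0 of 40), and the median was -0.02. At an unadjusted p under 0.05, 5 were higher and 0 lower (6.57% and 4.48% of all genes). Ezr, encoding ezrin, the actin linker of fine astrocyte processes, was at 57.4 to 60.5 CPM in WT_hM4D and 56.5 to 58.4 CPM in WT_tdT (log2 change 0.03, SE 0.09, edgeR adjusted p = 0.932). Its relative Msn, encoding moesin, was at 15.4, 15.9, 15.5 and 14.4 CPM in WT_hM4D and 13.02, 13.2, 13.1 and 13.9 CPM in WT_tdT (log2 change 0.20, SE 0.06, edgeR adjusted p = 0.256). Of the 57 genes of Gi and cyclic AMP signalling 0 were called by edgeR and 1, Chrm4, by DESeq2, and the median was -0.01. At an unadjusted p under 0.05, 1 was higher and 4 lower (6.57% and 4.48% of all genes). Gnao1, the most abundant Go alpha subunit of brain, was at 504 to 584 CPM in WT_hM4D and 596 to 636 CPM in WT_tdT (log2 change -0.18, SE 0.06, edgeR adjusted p = 0.256). Thbs1, the synaptogenic thrombospondin that striatal astrocytes raise after Gi stimulation in earlier mouse work, was at 1.38, 1.90, 1.42 and 1.37 CPM in WT_hM4D and 1.02, 1.64, 2.172 and 2.86 CPM in WT_tdT. The groups overlapped (log2 change -0.34, SE 0.23, edgeR adjusted p = 0.617), and over the alternatives the log2 change ranged from -0.56 to -0.10. Of the 27 synaptogenic and matricellular genes Cyr61 fell and no other was called by edgeR.

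Chaperones of the endoplasmic reticulum were higher without reaching edgeR's threshold. Of 24 genes of its stress response 0 were called by edgeR and 6, all higher, by DESeq2 (0.858% of all genes with an adjusted p). At an unadjusted p under 0.05, 9 were higher and 0 lower (6.57% and 4.48% of all genes). In 9 every WT_hM4D library lay above every control (3.64% of all genes). Hspa5, the chaperone BiP, was at 337, 285, 372 and 287 CPM in WT_hM4D and 194, 214, 216 and 228 CPM in WT_tdT (log2 change 0.59, SE 0.14, edgeR adjusted p = 0.117, DESeq2 adjusted p = 0.00856). Xbp1, the transcription factor spliced in this response, was at 92.5, 84.4, 104 and 89.9 CPM in WT_hM4D and 76.3, 68.8, 69.8 and 71.7 CPM in WT_tdT (log2 change 0.37, SE 0.09, edgeR adjusted p = 0.108). WT_hM4D 1 and 3 were the highest for both. The list's median was 0.11.

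No glucocorticoid or clock gene was called by edgeR (0 of 20 in each list), while DESeq2 called 3 and 5 (1.33% of all genes). Of 20 genes induced by glucocorticoids 2 were higher and 9 lower at an unadjusted p under 0.05 (6.57% and 4.48% of all genes). Plin4, a lipid droplet coat protein, was at 13.6, 7.49, 19.5 and 17.4 CPM in WT_hM4D and 7.26, 2.18, 3.55 and 1.28 CPM in WT_tdT (log2 change 2.02, SE 0.54, edgeR adjusted p = 0.178), and Fkbp5, a cochaperone of the glucocorticoid receptor, overlapped (log2 change 0.22, SE 0.12, edgeR adjusted p = 0.548). Of 20 clock genes 2 were higher and 5 lower at an unadjusted p under 0.05, beside the same shares of all genes. Nr1d1, the repressor REV-ERB alpha, was at 33.8, 40.5, 31.1 and 37.6 CPM in WT_hM4D and 62.1, 52.7, 54.2 and 52.2 CPM in WT_tdT (log2 change -0.63, SE 0.12, edgeR adjusted p = 0.0654, DESeq2 adjusted p = 0.000411). Cry1, a repressor of the clock's core loop, was at 29.9, 21.3, 31.4 and 27.4 CPM in WT_hM4D and 19.8, 19.3, 17.1 and 21.3 CPM in WT_tdT (log2 change 0.51, SE 0.10, edgeR adjusted p = 0.0732, DESeq2 adjusted p = 0.0019). No source used here gives the hour of dissection, and its part in these values was not tested.

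No projection neuron gene was called by edgeR, and their levels varied within the groups. Drd1, the dopamine receptor of direct pathway neurons, was at 289, 159, 270 and 239 CPM in WT_hM4D and 293, 248, 176 and 252 CPM in WT_tdT (log2 change -0.02, SE 0.20, edgeR adjusted p = 0.982). Penk, the enkephalin precursor of indirect pathway neurons, was at 1068, 592, 809 and 749 CPM in WT_hM4D and 1069, 992, 614 and 926 CPM in WT_tdT (log2 change -0.16, SE 0.21, edgeR adjusted p = 0.832). WT_hM4D 2 and WT_tdT 3 were the lowest of their groups for both genes. The same libraries were highest for Slc17a7, the vesicular glutamate transporter of cortical neurons, which was at 442, 814, 557 and 413 CPM in WT_hM4D and 407, 534, 746 and 588 CPM in WT_tdT. Of the 16 cortical excitatory neuron genes 1 was positive and 15 were negative, with a median log2 change of -0.18. That median was -0.45 without the libraries holding transcripts of both sexes. Shox2, a transcription factor of thalamus, was at 1.41, 0.0436, 1.21 and 0.684 CPM in WT_hM4D and 0.0316, 0.0329, 0.0447 and 0.0605 CPM in WT_tdT (log2 change 4.30, SE 1.96, edgeR adjusted p = 0.434), so that WT_hM4D 1, 3 and 4 stood apart from the other 5 libraries. Of the 20 thalamic, septal and pallidal genes 17 were positive (50.3% of all genes), with a median of 0.26. Of the 20 endothelial genes 5 were higher and 0 lower at an unadjusted p under 0.05 (6.57% and 4.48% of all genes). They were led by Cldn5, a tight junction protein, at 15.7 to 17.4 CPM in WT_hM4D and 11.4 to 14.9 CPM in WT_tdT (log2 change 0.34, SE 0.08, edgeR adjusted p = 0.0984). The part of dissection and of vessels in the changes above was not tested.

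The other genes that edgeR called belong to none of these lists. Galnt7, which starts or extends mucin-type sugar chains, was at 14.4, 13.01, 14.0 and 13.4 CPM in WT_hM4D and 11.1, 10.8, 10.4 and 11.1 CPM in WT_tdT, a small but even difference (log2 change 0.34, SE 0.06, edgeR adjusted p = 0.0315). Fam167a was at 1.99, 1.47, 1.998 and 1.80 CPM in WT_hM4D and 0.968, 1.26, 0.921 and 0.922 CPM in WT_tdT (log2 change 0.83, SE 0.14, edgeR adjusted p = 0.0315). The gene model 3425401B19Rik averaged 0.297 ± 0.0537 CPM in WT_hM4D and 0.608 ± 0.104 CPM in WT_tdT (log2 change -1.04, SE 0.18, edgeR adjusted p = 0.0315). Fbxw23, annotated as a transcribed unprocessed pseudogene, had 25, 22, 30 and 13 counts in WT_hM4D and 0, 0, 3 and 1 counts in WT_tdT (edgeR adjusted p = 0.0383). In the knockouts it had 10 to 30 counts in KO_hM4D and 2 to 25 in KO_tdT, and the lowest KO_tdT library lay among the WT_tdT libraries. Each of these 4 was called in 16 or fewer of the 29 alternatives.

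Of the genes that DESeq2 alone called, the largest differences at 1 CPM or more in either group included Eda2r, a death receptor of the TNF receptor family. It was at 1.20, 1.26, 1.36 and 1.15 CPM in WT_hM4D and 0.506, 0.795, 0.430 and 0.612 CPM in WT_tdT (log2 change 1.09, SE 0.22, edgeR adjusted p = 0.0732). Pkp2, the junction protein plakophilin 2, was at 4.03 to 6.79 CPM in WT_hM4D and 2.56 to 3.40 CPM in WT_tdT (log2 change 0.88, SE 0.19, edgeR adjusted p = 0.0858). In neither gene did the groups overlap, as in 227 of DESeq2's 244 calls.

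Whether the effect differed in knockouts was tested as the interaction, the log2 change in wild types minus that in knockouts. The 2 genotypes' changes share no library. No gene passed (0 of 20825 by edgeR, with 1410 or 6.77% at an unadjusted p under 0.05), and DESeq2 called 13 of 23607 (0.0551%), 7 higher (0.0297%) and 6 lower (0.0254%). In the knockouts edgeR called 1 gene, C4b (0.0048%), and DESeq2 called 120 (0.68%). Of the 18 genes called in wild types 16 had the same sign in knockouts, and in all 18 the change in wild types went further in its direction. For 17 of the 18 the unadjusted interaction p was under 0.05. Since these genes were chosen for their change in wild types, both counts are a description. C4b changed by 1.90 (SE 0.21) in wild types and by 1.497 (SE 0.21, edgeR adjusted p = 0.0448) in knockouts. Gfap changed by 1.33 (SE 0.15) in wild types and had 0.71 (SE 0.15, edgeR adjusted p = 0.183) in knockouts.

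The smallest interaction p was that of Dusp1, which had -1.02 (log2, SE 0.13) in wild types and 0.01 (SE 0.13) in knockouts (interaction adjusted p = 0.407 by edgeR and 0.000361 by DESeq2). Btg2, with -1.17 in wild types and 0.08 in knockouts, had the same adjusted p by both tools. Levels of Dusp1 were 8.25 to 11.7 CPM in KO_hM4D and 8.56 to 12.7 CPM in KO_tdT, under every WT_tdT library. Those of Btg2 were 7.92 to 11.2 CPM in KO_hM4D and 7.98 to 9.02 CPM in KO_tdT, also under every WT_tdT library. Fos was likewise at 7.95, 9.70, 12.5 and 7.56 CPM in KO_hM4D and 12.4, 9.38, 12.6 and 20.6 CPM in KO_tdT. Csrnp1, an immediate early transcription factor, had -0.44 (SE 0.09) in wild types and 0.23 (SE 0.09) in knockouts (interaction adjusted p = 0.407 by edgeR and 0.00121 by DESeq2). In the knockouts sex and virus moved together: Xist was at 30.5 to 46.8 CPM in all KO_hM4D libraries, and 2 of the 4 KO_tdT libraries had no Xist, so there the virus and sex cannot be fully told apart.

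**Figure D5:**
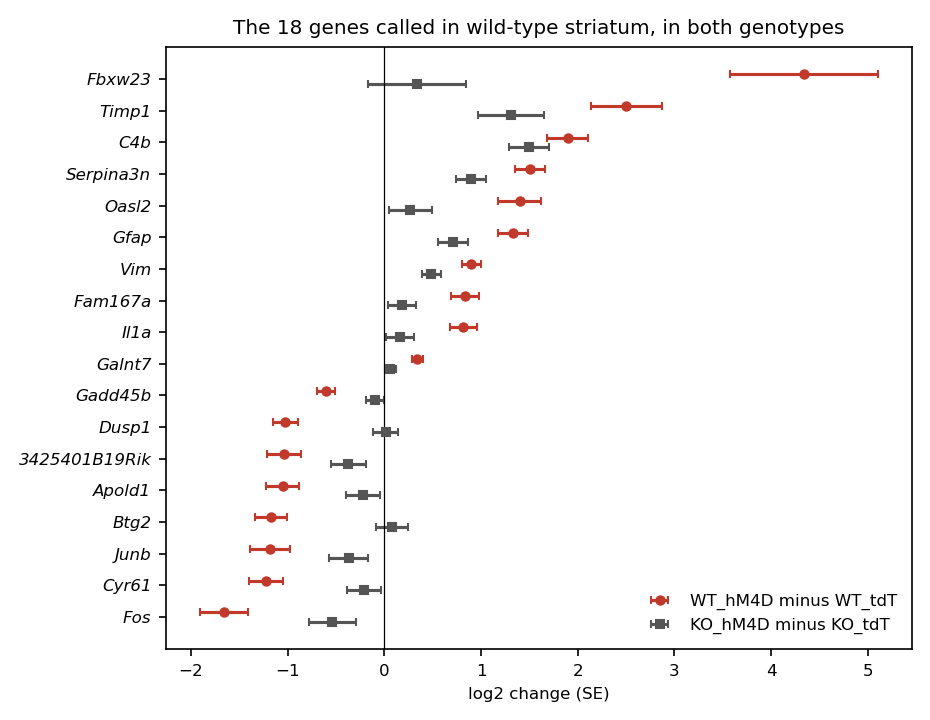
Log2 change with SE (x axis) of the 18 genes called in wild-type striatum, as WT_hM4D minus WT_tdT (red circles) and KO_hM4D minus KO_tdT (grey squares). The knockout values lie nearer to 0 than the wild-type values for all 18 genes, and Dusp1 and Btg2 lie at 0.01 and 0.08 in the knockouts.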

How the data were processed

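RNA of striatum was sequenced from ribosome-depleted stranded total RNA libraries, per the labels' protocols. The authors deposited raw read counts per gene as whole numbers, made with bcl2fastq 2.17, STAR and HTSeq on GRCm38 (mm10), per the submitters' processing notes. No source used here gives the strand setting or annotation release, so overlapping and antisense genes are uncertain. Of 48795 gene identifiers 48435 matched GENCODE M21, which supplied coordinates. The deposited counts entered edgeR 4.0.16 (R 4.3.3) with filterByExpr by group (20825 genes kept), TMM factors, and 1 quasi-likelihood model over all 16 libraries, which share one estimate of the spread (12 residual degrees of freedom). P-values are two-sided with Benjamini-Hochberg adjustment, and calls are genes with an adjusted p under 0.05. The SE of a log2 change is its absolute value divided by the square root of the quasi-likelihood F. It is therefore derived from the test and is no separate measure of spread. Levels are CPM with TMM factors, and list levels are mean log2 CPM with a prior count of 2. DESeq2 1.42.0 and limma 3.58.1 (voom) were alternatives. The tools were also run on counts simulated from the fitted means and dispersions. These held none of the mixed or uneven libraries described above, so they do not bear on the dependence of the calls on single libraries. Every row of the count table names a gene. Alternatives were DESeq2 size factors, no low-count filter, a mean of at least 1 CPM, a replicate block, sex as a covariate, wild-type libraries alone and leaving out each library; of the fits without sets of doubtful libraries, the DESeq2 fit, the fit also without KO_tdT 4 and the fit without WT_hM4D 2 and WT_tdT 3 were chosen after seeing the data.

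The gene lists and members were chosen with earlier results of these data known. Named genes are every edgeR call, Dlgap3, Chrm4 and Thbs1, up to 5 members of each list by smallest p and its defining markers, the 12 largest DESeq2-only changes in each direction with a mean of at least 1 CPM, and the 5 smallest interaction p. Any other is said to be chosen after its values were seen. No label says that the replicate numbers mark a shared litter, batch or day, so they were not used as pairs. Deviations of same-numbered wild-type libraries had r of -0.191 to 0.0496. These few correlations cannot show whether the libraries share a batch, which was not tested. The labels give 4 replicates per group, some of which may not each be 1 mouse, as said above. The edgeR p-values rest on the spread between libraries within groups, shared over all 16 libraries. Promoter windows are RefSeq's on GRCm38.p6, found for 16 of the 18 called genes. Gene coordinates are full GENCODE spans, whose ends can differ from the RefSeq starts, as for Gfap and Dusp1.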

Additional observations from a re-analysis of the deposited data

Results flagged for a closer look

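A library was singled out where its gap to the nearest of its group exceeded Dixon's 95% critical share of the group's range for 4 samples. This held in 18 of 254 groups examined (7.09%), where chance gives about 1 in 20. Among genes that rose, Timp1 was low in WT_hM4D 4 (0.283 CPM), Fbxw23 was low in WT_hM4D 4 (0.0801 CPM) and Fam167a was high in WT_tdT 2 (1.26 CPM). Among genes that fell, Btg2 was high in WT_hM4D 1 (10.8 CPM) and 3425401B19Rik was low in WT_tdT 2 (0.454 CPM).

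The class II genes H2-Aa, H2-Ab1 and H2-Eb1 were high in WT_hM4D 3, at 5.96, 4.78 and 4.4 CPM. The immunoglobulin heavy chains Igha and Ighg2b were high in WT_hM4D 4, at 5.91 and 4.86 CPM, as was the interferon-induced Isg15 at 0.777 CPM. Lyz2, a lysozyme of myeloid cells, stood apart in WT_tdT 3 at 5.12 CPM. Gja1, the astrocyte connexin 43, stood apart in WT_hM4D 4 at 162 CPM, and Thbs1 and Ddit4 in WT_hM4D 2 at 1.90 and 15.4 CPM. Hspb1 and Msn were high in WT_tdT 4 at 2.90 and 13.9 CPM, and Rgs4, a regulator of G protein signalling, stood apart in WT_tdT 1 at 976 CPM.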

How the results depend on the processing

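The counts of genes higher in WT_hM4D and genes lower in WT_hM4D were 157 and 87 with DESeq2, 18 and 13 with sex as a covariate, and 26 and 23 with only the wild-type libraries, where 14 of the 18 remained. They were 1 and 0 without the libraries holding Xist and Y-linked transcripts, 117 and 77 by DESeq2 on the same libraries, and 6 and 1 without WT_hM4D 2 and WT_tdT 3. With a replicate block 6 were higher over all libraries (13 calls in all), and 5 higher and 5 lower in the wild-type libraries alone. Of the 18 calls these fits kept 13 and 6, and no label says what the replicate numbers mark. Leaving out each library in turn gave 4 to 39 higher and 2 to 26 lower. Genes differing in the virus effect between genotypes were 13 with DESeq2, 1 without the libraries holding both kinds of transcript, 108 by DESeq2 on those, 3 by edgeR with KO_tdT 4 left out as well, and 0 to 4 when each library was left out. In each case the cause was not tested beyond the fewer libraries that some settings leave.

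None of the 18 called genes changed direction in the 29 alternatives, and of 288 combinations of a called gene and a left-out library 65 lost the call. Dlgap3 ranged from -0.04, without WT_tdT 2, to 0.14. The difference in the mitochondrial share of counts ranged from -0.3241 to 0.175 percentage points with each library left out, positive without WT_hM4D 4 (0.04774) or WT_tdT 1, and was 0.2321 without the libraries holding Xist and Y-linked transcripts. The difference in library total ranged from -10070000 to 6205000 counts and was positive without WT_hM4D 1 (1065000), WT_hM4D 2 (3143000) or WT_tdT 3. Of the 18, 4 had a mean under 1 CPM in both wild-type groups, and the effect of depth was not tested.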

Other observations

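Among cell types not described above, no gene was called by edgeR. Over all genes tested 50.3% were positive, and 6.57% were higher and 4.48% lower at an unadjusted p under 0.05. Of 18 genes of mature oligodendrocytes 12 were positive with a median log2 change of 0.086 and 0 at an unadjusted p under 0.05, and of 14 genes of their precursors 3 were higher and 0 lower at that p. Of 17 ependymal and choroid plexus genes 16 were positive (median 0.163, 0 at an unadjusted p under 0.05). Of 10 genes of border macrophages and monocytes that passed the filter 8 were positive, with 0 at an unadjusted p under 0.05. Of 15 interneuron genes 1 was higher, and of 16 mural and fibroblast genes 1 was higher and 2 were lower.

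Of 41 glutamate receptor and scaffold genes 2 were lower and 0 higher at an unadjusted p under 0.05 (median -0.027), and of 22 genes of the GABA system 1 was higher and 0 lower (median -0.019). Of 32 cholesterol genes 1 was higher and 3 lower (median -0.064), and of 17 cytosolic heat shock genes 6 were higher and 0 lower (median 0.11). All 13 genes of the mitochondrially encoded list were negative (median -0.208), with 0 at an unadjusted p under 0.05. Their mean log2 level in WT_hM4D 1 was 7.44, above the 7.22 to 7.38 of the WT_tdT libraries. Without the libraries holding Xist and Y-linked transcripts the median was -0.04 and 5 of the 13 were positive. The list summed to 29090 to 39710 CPM in WT_hM4D and 35810 to 39180 CPM in WT_tdT. It thus holds only part of the mitochondrial counts, whose whole share was 11.4% in WT_hM4D and 11.5% in WT_tdT.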
